A study of Mus musculus with 41 samples.

Results

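Genomic imprints are regions that keep DNA methylation on the chromosome of 1 parent through the demethylation of the early embryo. In cultured embryonic stem cells (ESCs) this methylation can be kept or lost. In mouse, the KRAB zinc finger protein ZFP57 binds methylated imprinting control regions, ZFP445 acts at many of the same regions, and their KRAB domains bind the corepressor TRIM28 (also called KAP1). TRIM28 brings SETDB1, which trimethylates lysine 9 of histone H3, and the HP1 proteins (encoded by Cbx1, Cbx3 and Cbx5), which bind that mark, while ATRX and its partner DAXX place the histone variant H3.3 in heterochromatin. The 9 genes described here, Zfp57, Zfp445, Trim28, Setdb1, Cbx1, Cbx3, Cbx5, Atrx and Daxx, were chosen by symbol for these roles, out of 24028 gene symbols with values. Their own values were not used for the choice, but earlier results of these data were known. All 9 were found, each on 1 row of every RNA-seq library, and all 9 passed the filter on low values in every comparison.

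RNA-seq values were analysed for 13 libraries of androgenetic haploid ESCs (AG-haESCs), cells whose only genome comes from sperm, which were grown on feeder fibroblasts and sorted for a haploid DNA content. All libraries are labelled C57BL/6. Wild-type 2i-14 cells in 2i/L (serum, LIF, the MEK inhibitor PD0325901 and the GSK3 inhibitor CHIR99021) gave 3 libraries, at p18, p39 and p50, and are 1 line. Wild-type cells in TSa2i/L gave 5 libraries, namely p22, p47 and p54 of TSa2i-14 with p9 and p58 of TSa2i-C57. These lines were derived with serum, LIF, the Src inhibitor CGP77675 and CHIR99021 and then kept without serum in SF/a2i/L, so that serum, inhibitor and line differ together from 2i-14. 2i-O48 carries deletions of the H19-DMR and IG-DMR (differentially methylated regions), and 2i-O48-TKO carries these and a deletion of the H19 gene. Each of these lines gave 1 library in 2i/L, and line and genotype cannot be told apart when they are set against 2i-14. The labels give no passage for them. All 3 lines kept in 2i/L also gave 1 library each 5 passages after a switch to SF/a2i/L. The labels do not name the passage at which 2i-14 was switched, so p50 was taken here as the control of its switched library. Libraries of a line are separate passages and not independent lines. 2i-O48-TKO shares the name and the DMR deletions of 2i-O48, so these lines may not be independent either. The p-values therefore measure the spread between these libraries.

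The authors deposited values as FPKM (fragments mapped to a transcript, scaled by its length and the depth of the library). Differences between libraries depend on this scaling, and centring libraries on their medians shifted every log2 change, as given below. The depth implied by the smallest values was 12700000 to 20000000 fragments per library, at which 3 fragments on a transcript of 1 kb correspond to 0.150 to 0.236 FPKM, with counting error only. The lowest member, Zfp445, rested on 83 to 215 fragments. The 10 pluripotent cell markers were all above 0 in all libraries. Fibroblast markers, which feeder cells express, summed to 139 FPKM over 12 genes in TSa2i-14 p54, 64.6 FPKM in 2i-14 p39 and 43.1 FPKM in TSa2i-C57 p58, and to 1.58 to 10.4 FPKM in the other 10 libraries, with up to 8 of the 12 listed at 0. Fewer cells of a type and less RNA per cell cannot be told apart in these libraries. MicroRNA loci held 67.2% of the summed FPKM in switched 2i-14 cells and 23.2% in 2i-14 p18. Without these loci the sums were 705261 and 669934 FPKM, within the range of 651108 to 735365 FPKM over all libraries.

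Promoter sequences were read for all 9 genes from RefSeq (GRCm38.p6, 250 bases before to 50 after each annotated start, 15 windows). They are shown because the members differ widely in CpG content, the dinucleotide that carries DNA methylation. The 3 windows of Zfp57 hold 6, 9 and 4 CpG, against a median of 7 over 32851 windows of the same length. The single window of Trim28 holds 23 CpG, both windows of Cbx3 hold 34 and 32, and the 3 overlapping windows of Daxx hold 33, 32 and 32. Setdb1 has 15, Cbx1 22, Atrx 11 and Zfp445 10, and Cbx5 has 8 and 29 in its 2 windows. The Zfp57 window with the most CpG (chr17:37002275-37002574, plus strand) and the Trim28 window (chr7:13023902-13024201, plus strand) are given with every CpG in capitals.
Zfp57: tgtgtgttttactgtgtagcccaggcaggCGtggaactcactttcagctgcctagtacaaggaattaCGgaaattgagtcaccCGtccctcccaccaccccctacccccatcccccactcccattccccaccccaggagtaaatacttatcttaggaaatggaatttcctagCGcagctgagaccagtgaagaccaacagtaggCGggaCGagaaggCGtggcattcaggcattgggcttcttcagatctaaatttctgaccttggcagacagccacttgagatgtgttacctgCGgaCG
Trim28: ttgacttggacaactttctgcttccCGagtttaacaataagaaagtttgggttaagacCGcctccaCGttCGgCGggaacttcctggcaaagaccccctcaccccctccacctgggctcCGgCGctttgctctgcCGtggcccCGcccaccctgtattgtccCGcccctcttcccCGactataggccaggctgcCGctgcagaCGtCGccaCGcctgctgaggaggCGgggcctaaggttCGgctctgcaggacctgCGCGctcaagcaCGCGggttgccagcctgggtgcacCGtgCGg
The hexamer TGCCGC, the core motif of ZFP57 in its methylated target regions, was searched on both strands and occurs in 1 of the 15 windows, that of Trim28, and in 11.6% of all windows. This is a match of letters and not a measured binding site, and which start these cells use was not tested.

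The order of the 9 transcript levels in FPKM, which is per length, was nearly fixed. Cbx3 was the highest of the 9 genes in 13 of 13 libraries, Atrx the fifth, Cbx5 the sixth and Zfp445 the lowest. Trim28, Cbx1 and Zfp57 shared ranks 2 to 4, and Daxx and Setdb1 exchanged ranks 7 and 8. The median level over the 13 libraries was 289 FPKM for Cbx3, 114 for Trim28, 76.0 for Cbx1, 59.5 for Zfp57, 30.5 for Atrx, 18.4 for Cbx5, 10.2 for Daxx, 8.0 for Setdb1 and 2.96 for Zfp445. The 13-library ranges of neighbours in this order overlapped for every pair except Setdb1 and Zfp445. The ratio of the highest to the lowest library was smallest for Cbx5, 1.69, and Cbx3, 1.70, and largest for Trim28, 3.67, and Zfp57, 3.00. Cbx3 has an annotated pseudogene and 64 exonic bases of Setdb1 overlap a gene on the opposite strand, so reads of either gene could have been shared.

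**Figure D1:**
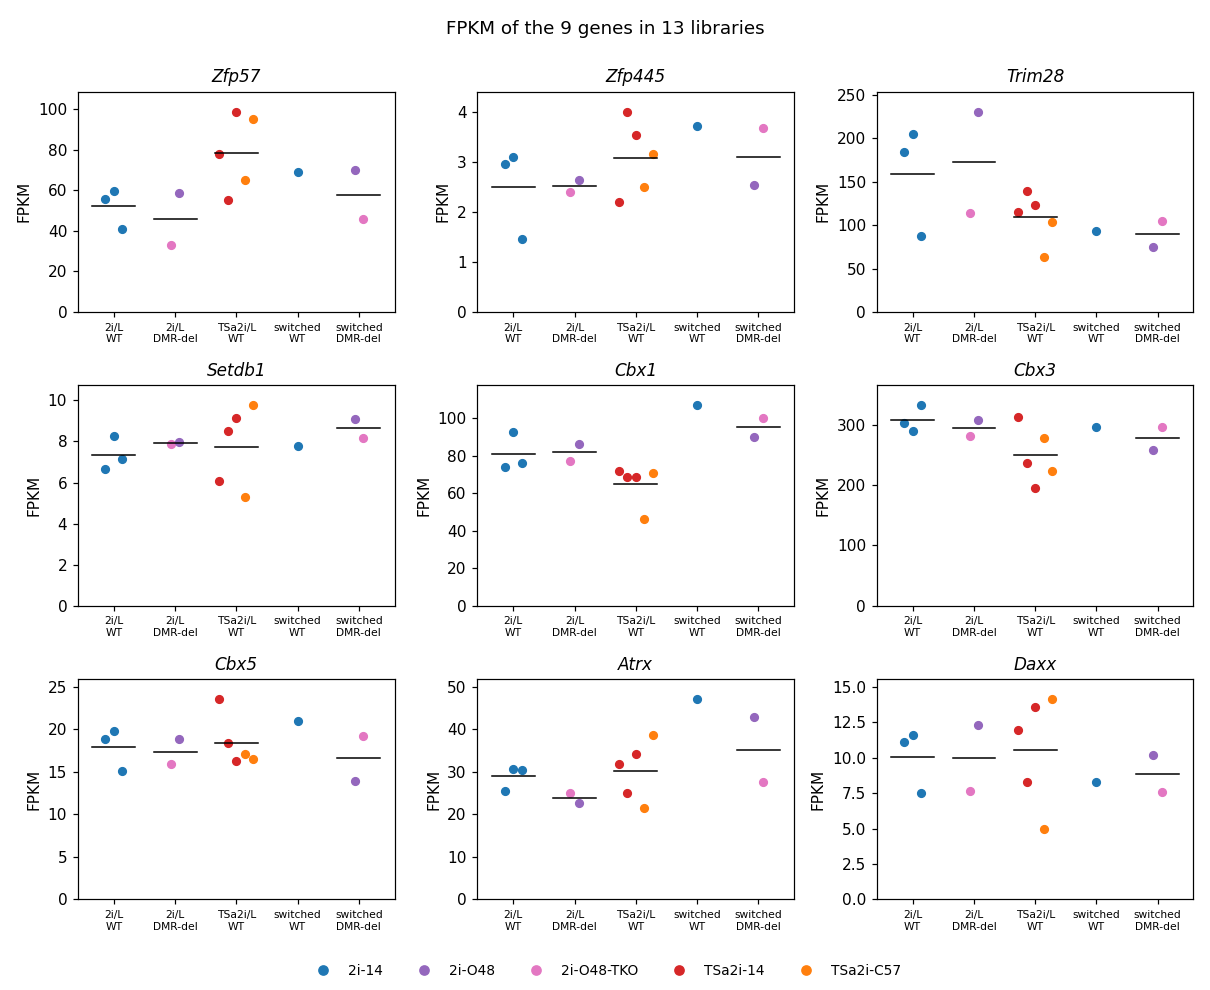
FPKM (y axis, from 0) of the 9 genes in the 13 libraries, by group on the x axis, with 1 point for each library coloured by cell line and a bar at the mean of each group with more than 1 library. Zfp57 lies at 32.9 to 59.5 FPKM in the 5 libraries in 2i/L and at 55.3 to 98.7 in the 5 in TSa2i/L, and Trim28 has its 3 highest points in 2i/L.

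None of the 9 genes passed the threshold in any of the 4 comparisons, which were fitted with limma over all genes on log2(FPKM + 1) and adjusted by Benjamini-Hochberg at 0.05. Of all called genes 75.6% were higher in TSa2i/L (56.2% with libraries centred on their medians, which lowered every log2 change by 0.12), and 32.3% were higher after the switch (55.1% with centring, which raised every change by 0.17). Between TSa2i/L and 2i/L in wild-type cells 0 of 9 members were called, against 7.57% of 10387 genes, and 1 member had an unadjusted p under 0.05, as did 23.1% of all genes tested. After the switch 0 of 9 were called, against 6.89% of 9759 genes, and 2 had an unadjusted p under 0.05, beside 26.1% of all genes. Between late and early passages in TSa2i/L 0 of 9 were called, against 0% of 10502 genes by limma, and 2 members had an unadjusted p under 0.05, beside 8.84% of all genes (928). In the DMR-deleted lines against wild type in 2i/L 0 of 9 were called, against 0.118% of 10164 genes, and 0 had an unadjusted p under 0.05, beside 5.79%. The median log2 change of the members was 0.03, 0.11, 0.28 and -0.03 in these comparisons, beside 0.07, -0.09, 0.09 and 0.03 over all genes tested. The unadjusted 95% interval of the log2 change lay between -1 and 1 for 7, 6, 6 and 8 of the 9 genes, and its median half-width was 0.47, 0.49, 0.52 and 0.54, so smaller changes could not be told from the spread between libraries.

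**Figure D2:**
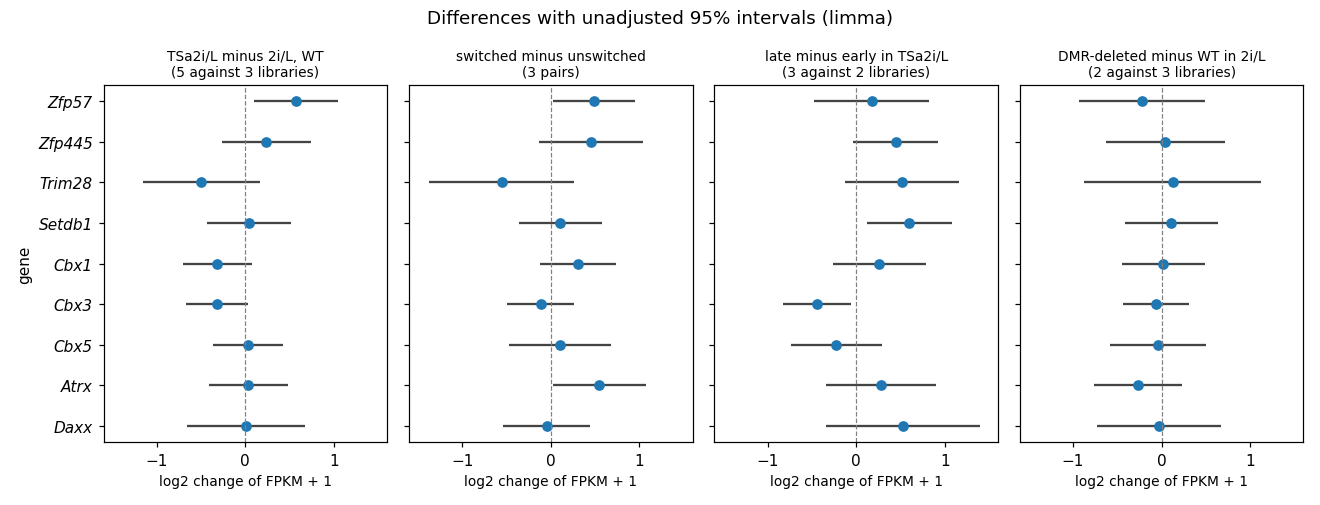
Difference in log2(FPKM + 1) (x axis) of each gene (y axis) in the 4 comparisons, with points at the limma estimate and lines for the unadjusted 95% interval. Zfp57 is at 0.57 in TSa2i/L and 0.49 after the switch with intervals that leave out 0, and no gene passed after adjustment over all genes.

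Zfp57, on chromosome 17 of NCBIM37 (mm9, 37138108 to 37147580, plus strand), is the KRAB zinc finger gene whose product reads methylated imprints. It was 55.8, 59.5 and 40.8 FPKM in p18, p39 and p50 of 2i-14. In TSa2i/L it was 78.0, 55.3 and 98.7 FPKM in TSa2i-14 p22, p47 and p54 and 65.0 and 95.1 FPKM in TSa2i-C57 p9 and p58. Of the TSa2i/L libraries 4 were above every 2i/L library, and TSa2i-14 p47 was below 2i-14 p18 and p39. The mean was 78.4 ± 18.7 FPKM (SD, n = 5) in TSa2i/L and 52 ± 9.92 FPKM (SD, n = 3) in 2i/L. The difference was 0.57 on the log2(FPKM + 1) scale (SE 0.22, unadjusted 95% interval 0.09 to 1.04), with a limma adjusted p of 0.139 and an exact two-sided permutation p of 0.107 over 56 splits, which allow no p below 0.0357. Over the alternatives in processing the difference was 0.41 to 0.68 and the limma adjusted p 0.0564 to 0.485. The 2 highest libraries, TSa2i-14 p54 and TSa2i-C57 p58, and the highest 2i/L library, 2i-14 p39, are the 3 with the most fibroblast RNA, whose 12 markers summed to 2.34 to 64.6 FPKM in the wild-type 2i/L group and 2.09 to 139 FPKM in TSa2i/L. Col1a1 was above 0 in all 13 libraries, and Lum was at 0 in 2i-14 p39. Without these 3 libraries the difference was 0.45, with a limma adjusted p of 0.485.

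Zfp57 was also read in the same lines before and after the switch. It was 40.8 FPKM in 2i-14 p50 and 69.1 FPKM in switched 2i-14, 58.6 and 69.8 FPKM in 2i-O48 before and after, and 32.9 and 46.0 FPKM in 2i-O48-TKO. Each switched library was above its control, with p50 taken for 2i-14. Switched 2i-14 was also above 2i-14 p18 and p39, but switched 2i-O48-TKO was below the 2i/L library of 2i-O48. The difference was 0.49 (SE 0.19, interval 0.03 to 0.95) with a limma adjusted p of 0.170. With p39 or p18 in place of p50 as the 2i-14 control it was 0.31 and 0.34. Late against early passages in TSa2i/L gave a log2 difference of 0.17 (interval -0.48 to 0.82, limma adjusted p 0.863), which was -0.36 without the 2 late libraries that carry fibroblast RNA, when the single late library left is assumed to vary like the early ones. DMR-deleted against wild-type cells in 2i/L gave -0.22 (interval -0.93 to 0.49, limma adjusted p 1.00), with 2i-O48 at 58.6 FPKM among the wild-type values and 2i-O48-TKO at 32.9 FPKM the lowest of all libraries.

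Zfp445 (chromosome 9, 122761032 to 122771246, minus strand), the other KRAB zinc finger gene with a role at imprints, was the member of lowest level. It was 2.96, 3.10 and 1.46 FPKM in p18, p39 and p50 of 2i-14, and 2.2, 4.00 and 3.54 FPKM in TSa2i-14 p22, p47 and p54 and 2.50 and 3.16 FPKM in TSa2i-C57 p9 and p58. The groups overlap and differed by 0.24 (SE 0.23, interval -0.26 to 0.74, limma adjusted p 0.598), or by -0.00090 without 2i-14 p50. Before and after the switch it was 1.46 and 3.72 FPKM in 2i-14, 2.65 and 2.53 in 2i-O48, then 2.40 and 3.67 in 2i-O48-TKO. The control 2i-14 p50 is the lowest library of all for this gene, and the switched 2i-14 value is 1.26 times that of p18 against 2.55 times that of p50. The switch difference was 0.45 (interval -0.13 to 1.04, limma adjusted p 0.295). The 3 late TSa2i/L libraries, 3.16 to 4.00 FPKM, lay above both early ones, with a difference of 0.45 and a limma adjusted p of 0.570. Zfp57 exceeded Zfp445 by 12.5 to 35.5 times in FPKM across the 13 libraries.

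Trim28, the corepressor that KRAB zinc finger proteins bind, is on chromosome 7 (13609501 to 13616384, plus strand) and varied most among the 9 genes. In 2i/L it was 184, 205 and 87.7 FPKM in p18, p39 and p50 of 2i-14, and 230 FPKM in 2i-O48 against 114 FPKM in 2i-O48-TKO. In TSa2i/L it was 115, 140 and 123 FPKM in TSa2i-14 p22, p47 and p54 and 62.7 and 104 FPKM in TSa2i-C57 p9 and p58. The 3 highest libraries were all in 2i/L, but the 2i/L values spanned those of TSa2i/L apart from the lowest, TSa2i-C57 p9. The wild-type means were 109 ± 28.9 FPKM (SD, n = 5) in TSa2i/L and 159 ± 62.4 FPKM (SD, n = 3) in 2i/L, a log2 difference of -0.50 (SE 0.30, interval -1.16 to 0.17, limma adjusted p 0.370, exact permutation p 0.214). It was -0.24 with TSa2i-14 alone and ran from -0.88 to -0.24 over the alternatives.

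After the switch Trim28 was 92.9 FPKM in 2i-14, 74.5 FPKM in 2i-O48 and, with the H19 deletion, 104 FPKM, and its response rested on the control library. Against its own control the ratio was 0.324 in 2i-O48 but 0.914 in 2i-O48-TKO. In 2i-14 it was 1.06 against p50 but 0.506 against p18 and 0.454 against p39. With p50, the control chosen for this comparison, the difference was -0.55 (SE 0.34, interval -1.37 to 0.26, limma adjusted p 0.351). With p39 it was -0.96 and passed (limma adjusted p 0.0420), and with p18 it was -0.91 (limma adjusted p 0.0685). p39 is 1 of the 3 libraries with fibroblast RNA and p18 is not. Without 2i-O48 the difference was -0.02. Late against early passages gave 0.51 (limma adjusted p 0.592), which was 0.080 without TSa2i-C57 p9 and 0.94 without TSa2i-14 p22. The comparison of DMR-deleted with wild-type cells gave 0.12 (interval -0.88 to 1.12, limma adjusted p 1.00), where the 2 deleted lines, at 230 and 114 FPKM, lay about as far apart as the wild-type passages, at 87.7 to 205 FPKM.

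Setdb1 (chromosome 3, 95127447 to 95161124, minus strand), the H3K9 methyltransferase of the complex, kept within 5.30 to 9.75 FPKM. It was 6.64, 8.24 and 7.12 FPKM in p18, p39 and p50 of 2i-14, 8.0 in 2i-O48 and 7.89 with the added H19 deletion. In TSa2i/L it was 6.06, 8.48 and 9.13 FPKM in TSa2i-14 p22, p47 and p54 and 5.30 and 9.75 FPKM in TSa2i-C57 p9 and p58. Both early TSa2i/L libraries were thus below every 2i/L library and all 3 late ones above every 2i/L library. The late mean was 9.12 ± 0.635 FPKM (SD, n = 3) against 5.68 ± 0.537 (SD, n = 2), a log2 difference of 0.60 (SE 0.20, interval 0.12 to 1.08). Its unadjusted limma p was 0.0202 and its adjusted p 0.530. Without TSa2i-14 p54 and TSa2i-C57 p58, the late libraries that carry fibroblast RNA, it was 0.51, with only TSa2i-14 p47 left as late. Setdb1, Cbx3 and Zfp445 were the 3 of 9 members whose late and early libraries did not overlap, against 28.2% of all genes tested. With TSa2i/L taken as a whole, the difference from 2i/L was 0.04 (interval -0.43 to 0.52, limma adjusted p 0.938). After the switch it was 7.78, 9.07 and 8.19 FPKM in the 3 lines (2i-14 first, then 2i-O48), a difference of 0.11 (interval -0.36 to 0.58, limma adjusted p 0.770).

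The HP1 genes encode the readers of H3K9 methylation. Cbx1, which encodes HP1β (chromosome 11, 96650441 to 96669954, plus strand), was 74.2, 92.6 and 76.0 FPKM in p18, p39 and p50 of 2i-14. It was 71.7, 68.7 and 68.4 FPKM in TSa2i-14 p22, p47 and p54 and 46.3 and 70.8 FPKM in TSa2i-C57 p9 and p58. All 5 TSa2i/L libraries were below all 3 of 2i/L, and Cbx1 was the 1 of 9 members whose groups did not overlap, against 16.5% of all genes tested. The gap between the groups was narrow, from 71.7 to 74.2 FPKM, and the log2 difference was -0.32 (SE 0.18, interval -0.71 to 0.07), with an exact permutation p of 0.0357, the smallest that 56 splits can give, and a limma adjusted p of 0.319. Without TSa2i-C57 p9, the lowest library at 46.3 FPKM, the difference was -0.20. After the switch Cbx1 had the opposite sign, with 76.0 and 107 FPKM in 2i-14, 86.4 and 90.0 in 2i-O48, then 77.1 and 100.3 in 2i-O48-TKO, a difference of 0.31 (interval -0.13 to 0.74, limma adjusted p 0.335). Switched 2i-14 and 2i-O48-TKO had the 2 highest values of all libraries. The limma result is for the 3 pairs together, and single pairs were not tested. The difference between the 2 comparisons was not tested, since they share 2i-14 p50.

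Cbx3, which encodes HP1γ (chromosome 6, 51420359 to 51433703, plus strand), was the most abundant of the 9 genes. It was 303, 289 and 332 FPKM in p18, p39 and p50 of 2i-14, 313, 237 and 195 FPKM in TSa2i-14 p22, p47 and p54, and 279 and 223 FPKM in TSa2i-C57 p9 and p58. The 3 late TSa2i/L libraries were the lowest of all 13 and both early ones lay higher, with 218 ± 21.0 FPKM (SD, n = 3) against 296 ± 24.3 FPKM (SD, n = 2). This log2 difference was -0.44 (SE 0.17, interval -0.83 to -0.06), with an unadjusted limma p of 0.0298 and an adjusted p of 0.535. Without TSa2i-14 p54 and TSa2i-C57 p58, the late libraries that carry fibroblast RNA, it was -0.32, with only TSa2i-14 p47 left as late. The difference between the media was -0.32 (interval -0.67 to 0.03, limma adjusted p 0.262) and that after the switch -0.12 (interval -0.49 to 0.26, limma adjusted p 0.682). In the switched libraries Cbx3 was 296, 258 and 297 FPKM.

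Cbx5, which encodes HP1α (chromosome 15, 103021975 to 103070247, minus strand), is transcribed at the lowest level of the HP1 genes. It was 18.9, 19.7 and 15.1 FPKM in p18, p39 and p50 of 2i-14, 23.5, 18.4 and 16.3 FPKM in TSa2i-14 p22, p47 and p54, and 17.1 and 16.5 FPKM in TSa2i-C57 p9 and p58. The media differed by 0.03 (SE 0.18, interval -0.36 to 0.42, limma adjusted p 0.951), an interval that leaves out a ratio of FPKM + 1 below 0.777 or above 1.34. After the switch it was 21.0 FPKM in 2i-14, 13.9 in 2i-O48 and 19.2 in the line without H19, with a difference of 0.10 (limma adjusted p 0.830). Of the summed FPKM of the 3 HP1 genes, which was 280 to 424, Cbx3 made up 69.8% to 81.5%, Cbx1 13.5% to 25.2% and Cbx5 3.57% to 5.81%. The Cbx5 share was 4.99% to 5.81% in the 5 TSa2i/L libraries and 3.57% to 4.92% in the 5 libraries in 2i/L, without overlap, and 3.84% to 4.95% in the switched ones. This share was formed after the values were seen and was not tested.

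Atrx (chromosome X, 102992954 to 103124736, minus strand) encodes the chromatin remodeller that acts with DAXX. It was 25.5, 30.8 and 30.5 FPKM in p18, p39 and p50 of 2i-14, 31.7, 24.9 and 34.2 FPKM in TSa2i-14 p22, p47 and p54, and 21.5 and 38.7 FPKM in TSa2i-C57 p9 and p58. The TSa2i/L values spread to both sides of those in 2i/L, with a log2 difference of 0.03 (interval -0.41 to 0.48, limma adjusted p 0.949). Across the switch Atrx was 30.5 and 47.1 FPKM in 2i-14, 22.7 and 42.8 FPKM in 2i-O48 and 24.9 and 27.6 FPKM in 2i-O48-TKO. Switched 2i-14 and 2i-O48 were the 2 highest libraries of all, and the difference was 0.55 (SE 0.22, interval 0.02 to 1.07), with an unadjusted limma p of 0.0433 and an adjusted p of 0.177. Zfp57, Setdb1, Cbx1 and Atrx were the 4 of 9 members with a higher value after the switch in all 3 pairs, against 19.4% of all genes tested, and 0 of 9 were lower in all 3, against 29.4%. Setdb1 leaves this set with p39 as the 2i-14 control, while the other 3 stay in it with p18 or p39. In 2i/L both DMR-deleted lines, 22.7 and 24.9 FPKM, were below the 3 wild-type libraries, as 1 of 9 members without overlap against 19.6% of all genes tested, with a difference of -0.27 (interval -0.76 to 0.23, limma adjusted p 1.00).

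Daxx (chromosome 17, 34046359 to 34052534, plus strand) encodes the H3.3 chaperone that ATRX recruits. It was 11.1, 11.6 and 7.50 FPKM in p18, p39 and p50 of 2i-14, and 12.3 in 2i-O48 against 7.63 in 2i-O48-TKO. In TSa2i/L it was 11.9, 8.29 and 13.5 FPKM in TSa2i-14 p22, p47 and p54 and 4.97 and 14.1 FPKM in TSa2i-C57 p9 and p58. Both the lowest and the highest library thus came from TSa2i-C57, and the media differed by 0.01 (SE 0.30, interval -0.66 to 0.67, limma adjusted p 0.995). Late against early passages gave 0.53 (interval -0.34 to 1.4, limma adjusted p 0.658), which was -0.03 without TSa2i-C57 p9. Before and after the switch it was 7.50 and 8.27 FPKM in 2i-14, 12.3 and 10.2 FPKM in 2i-O48 and 7.63 and 7.54 FPKM in 2i-O48-TKO, with a difference of -0.05 (interval -0.54 to 0.45, limma adjusted p 0.911). The ratio of Atrx to Daxx in FPKM was 1.85 to 4.07 in the 5 libraries in 2i/L, 2.52 to 4.33 in TSa2i/L and 3.66 to 5.69 in the switched libraries.

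**Figure D3:**
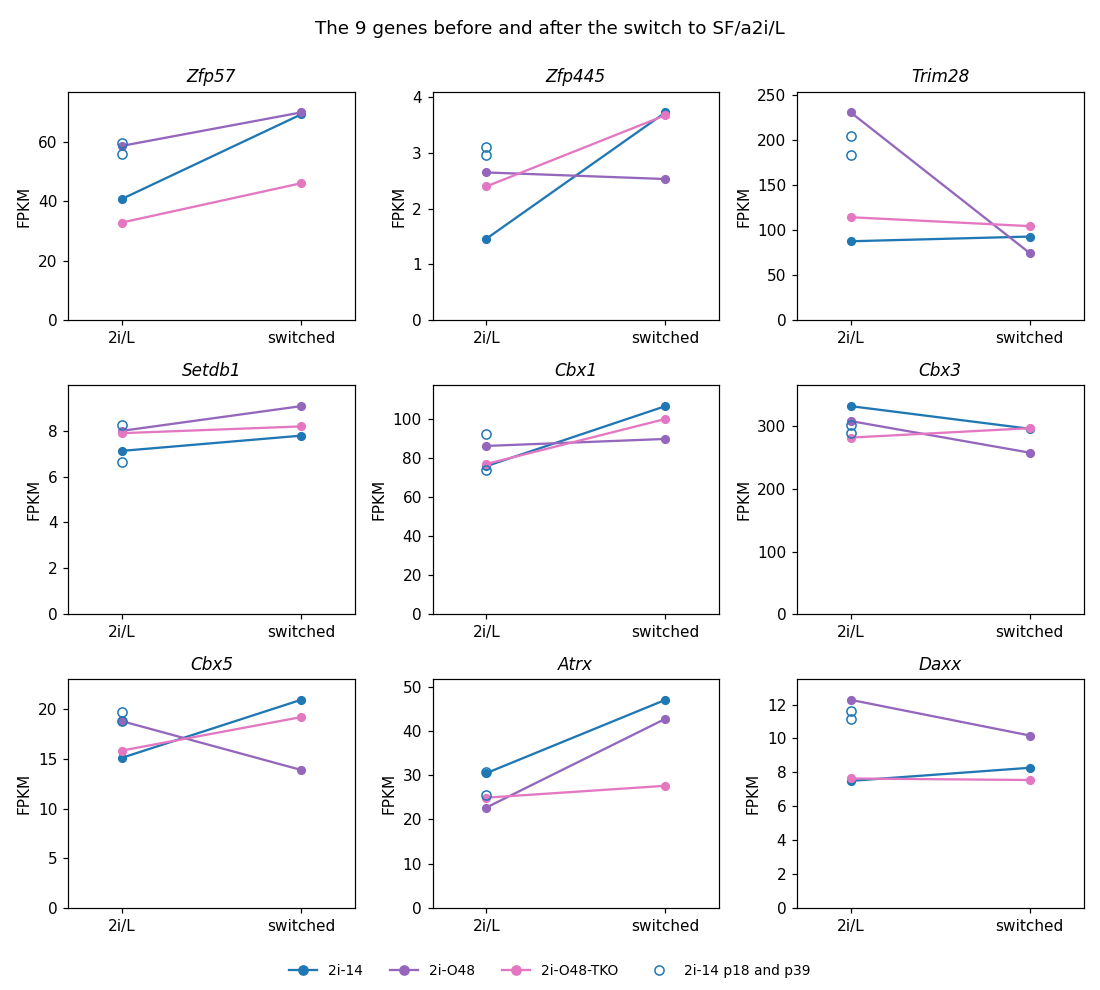
FPKM (y axis, from 0) of the 9 genes in 2i/L and 5 passages after the switch (x axis), with a line for each cell line and open circles for the 2i-14 libraries p18 and p39 that were not the main control. Zfp57, Setdb1, Cbx1 and Atrx have 3 of 3 lines sloping up, and for Trim28 the slope of 2i-14 turns with the control library.

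Zfp57 had higher means and Trim28 lower means in TSa2i/L and after the switch, with overlapping groups and no call in the main fits. Their ratio within each library, which no scaling factor of a library can change, was therefore read as well. Zfp57 over Trim28 in FPKM was 0.304, 0.291 and 0.465 in p18, p39 and p50 of 2i-14, and 0.254 in 2i-O48 against 0.287 in 2i-O48-TKO. In TSa2i/L it was 0.680, 0.397 and 0.799 in TSa2i-14 p22, p47 and p54 and 1.04 and 0.915 in TSa2i-C57 p9 and p58. After the switch it was 0.744 in 2i-14, 0.936 in 2i-O48 and, for 2i-O48-TKO, 0.441. The median was 0.291 over the 5 libraries in 2i/L, 0.799 in TSa2i/L and 0.744 after the switch, and the groups overlap only through 2i-14 p50, which lay above TSa2i-14 p47 and switched 2i-O48-TKO. The ratio was formed after the values of both genes were seen, so no test was made.

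**Figure D4:**
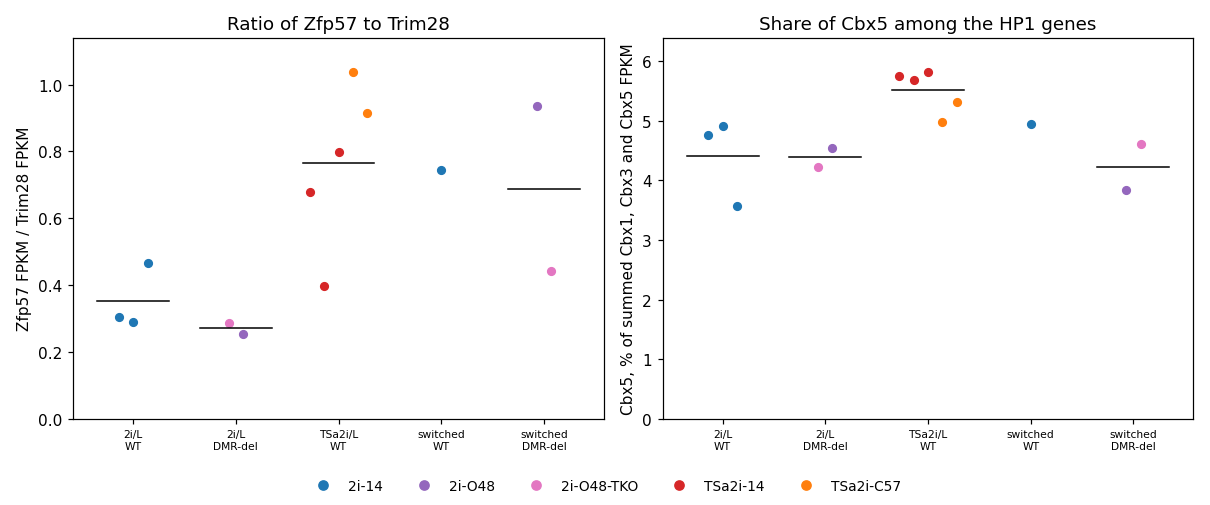
Ratio of Zfp57 to Trim28 FPKM (left y axis) and share of Cbx5 in the summed FPKM of Cbx1, Cbx3 and Cbx5 in % (right y axis) in the 13 libraries by group (x axis), with 1 point for each library and a bar at the mean of each group with more than 1. The ratio is 0.254 to 0.465 in 2i/L and 0.397 to 1.04 in TSa2i/L, and the Cbx5 share is at least 4.99% in TSa2i/L and at most 4.92% in 2i/L.

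Genes that work with the members were read from 4 lists. Of 16 cofactors of TRIM28 and SETDB1, all 16 were tested and 0 were called by limma in each of the 4 comparisons, with 1, 5, 0 and 0 at an unadjusted p under 0.05. For these and the other lists the shares over all genes tested, given above for the members, were 23.1%, 26.1%, 8.84% and 5.79%, so that 5 of 16 is near the share of all genes after the switch. The median log2 change of this list was -0.24 between the media, beside 0.07 over all genes tested, and -0.07 after the switch, beside -0.09. The 5 with an unadjusted p under 0.05 after the switch, named here after their values were seen, were Chaf1a and Chaf1b, subunits of the chromatin assembly factor CAF-1, the histone deacetylases Hdac1 and Hdac2, and Morc2a, which acts with the HUSH silencing complex. Chaf1a was 4.70 to 6.76 FPKM in the switched libraries and 9.78 to 10.7 in their controls, with a log2 difference of -0.76 (limma adjusted p 0.0847). Chaf1b differed by -0.56, Hdac2 by -0.50, Hdac1 by -0.60 and Morc2a by 0.52, with limma adjusted p from 0.106 to 0.182. In 2i-14 the changes of Morc2a and Hdac2 rested on p50 as the control. Morc2a was 5.42 and 5.39 FPKM in p18 and p39 against 5.36 FPKM in switched 2i-14. Hdac2 was 177 and 151 FPKM against 181 FPKM. Chaf1a, Chaf1b and Hdac1 were lower in switched 2i-14 than in p18 and p39 as well. Pphln1, which encodes a HUSH subunit, was the 1 gene under 0.05 unadjusted between the media, with -0.43 (limma adjusted p 0.214).

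Of 9 further imprint maintenance factors 9 were tested and 0 were called by limma in any of the 4 comparisons, with 0, 2, 2 and 0 at an unadjusted p under 0.05. Dppa3 (also called Stella), which protects imprints in the zygote, was 192 to 267 FPKM in the switched libraries and 259 to 425 FPKM in their controls, a log2 difference of -0.62 (limma adjusted p 0.172). In TSa2i/L it was 124 to 187 FPKM in the late and 261 to 265 FPKM in the early libraries, a difference of -0.69 (limma adjusted p 0.530). The lowest Dppa3 level of all, 60.8 FPKM, was in 2i-14 p18. Hells, a remodeller needed for DNA methylation, had differences of -0.48 after the switch and -0.43 in late passages (limma adjusted p 0.152 and 0.563). Dnmt1, the maintenance DNA methyltransferase, was 7.11 to 12.5 FPKM and its partner Uhrf1 19.5 to 46.5 FPKM over the 13 libraries. The list's median change was -0.16 between the media, beside 0.07 over all genes tested, and -0.14 after the switch, beside -0.09.

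Of 12 other KRAB zinc finger genes, the family to which Zfp57 and Zfp445 belong, 7 were expressed at a level that could be tested in each comparison and 0 were called by limma, with 1, 1, 1 and 0 at an unadjusted p under 0.05. Gm15446 was 1.68 to 5.89 FPKM in TSa2i/L and 0.794 to 0.960 FPKM in 2i/L (log2 difference 0.97, limma adjusted p 0.0658), and 0.75 after the switch (limma adjusted p 0.131). Zfp568, which represses a placental Igf2 transcript, was 6.00 to 8.07 FPKM in late and 3.57 to 4.81 FPKM in early TSa2i/L libraries (limma adjusted p 0.530). KRAB zinc finger genes lie in clusters of similar copies, so their values are uncertain where reads match more than 1 gene. The median change of the list was -0.08 between the media, beside 0.07 over all genes tested.

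Of 17 partners in H3.3 deposition and heterochromatin, 16 or 17 were tested in each comparison and 0 were called by limma, with 3, 1, 1 and 0 at an unadjusted p under 0.05. Between the media these were Suv39h1, an H3K9 methyltransferase of pericentric heterochromatin (0.51, limma adjusted p 0.130), Smarca5, a chromatin remodeller (-0.36, limma adjusted p 0.194), and Sp100, which with Daxx resides in nuclear PML bodies (1.11, limma adjusted p 0.212). Sp100 was low, at 0.449 to 7.62 FPKM in TSa2i/L and 0.0356 to 0.651 FPKM in 2i/L, with overlap. Its highest value was in TSa2i-14 p54, the library with the most fibroblast RNA. H3f3a, which encodes H3.3, was 688 to 896 FPKM in the switched libraries and 522 to 632 FPKM in their controls (0.49, limma adjusted p 0.137), but 2i-14 p18 and p39, at 689 and 727 FPKM, lay within the switched range. Suv420h1, an H4K20 methyltransferase, differed by 0.64 between late and early passages (limma adjusted p 0.535). The median change was -0.02 between the media, beside 0.07 over all genes tested, and 0.30 in late passages, beside 0.09.

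Genes of the 2-cell embryo are a group whose silencing in ESCs involves TRIM28 and SETDB1. Of the 10 listed, 9 were found, and 0 passed the filter in 3 of the 4 comparisons. The 5 Zscan4 genes found summed to 138 FPKM in 2i-14 p18, 146 FPKM in 2i-14 p50 and 36.9 FPKM in 2i-O48-TKO, against 1.32 FPKM in 2i-14 p39 and 0.422 FPKM in 2i-O48. In the 5 TSa2i/L and the 3 switched libraries they summed to 0 to 0.341 FPKM. Among the 5 libraries in 2i/L, the 3 with the higher Zscan4 sums were thus the 3 with the lower Zfp57 values, 55.8, 40.8 and 32.9 FPKM. They also had the lower Trim28 values, 184, 87.7 and 114 FPKM. Setdb1, Cbx1 and Daxx were split in the same way, and Zfp445, Cbx3, Cbx5 and Atrx were not. For Zfp57 the gap was narrow, from 55.8 to 58.6 FPKM. This split was noted after the values were seen and is a description of 5 libraries. The share of all genes that show it was not computed. For Trim28 the split did not extend to the other 8, which had the lowest Zscan4 sums with Trim28 at 62.7 to 140 FPKM, also below the 184 of 2i-14 p18. The Zscan4 genes are near-identical copies, so only their sum is given. In the DMR-deleted lines 6 genes of the list could be tested and 0 were called by limma, with 0 at an unadjusted p under 0.05.

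The 5 genes whose log2(FPKM + 1) was most like that of Zfp57 over the 13 libraries, among 6304 genes with a mean of at least 5 FPKM, were 2410003L11Rik (Pearson r 0.87), Nupl2 (0.86), Ptpmt1 (0.85), Epb4.1l4a (0.85) and Shisa5 (0.83). All 5 had their highest level in TSa2i-C57 p58 or TSa2i-14 p54, the 2 libraries highest for Zfp57. This follows largely from picking them by their likeness to Zfp57 in the same libraries. None passed the limma threshold between the media (adjusted p 0.117 to 0.381) or after the switch (adjusted p 0.214 to 0.821). The 13 points share lines and passages, so r is given as a description.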

How the data were processed

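Full-length cDNA of small numbers of sorted haploid cells was amplified, reads were aligned by TopHat on the mm9 genome, and the FPKM values that the authors deposited were computed by Cufflinks (TopHat2 2.0.11, Bowtie2 2.2.2 and Cufflinks 2.2.1 in the submitters' processing notes). The annotation and any scaling between libraries are not given in the sources used here. Of the 41 samples, 13 RNA-seq libraries were used, and the methylation and chromatin samples were not analysed here. Each table had 24525 rows with 24028 symbols, and the rows of 268 repeated symbols were summed.

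Comparisons were fitted with limma 3.58.1 (R 4.3.3, intensity trend) on log2(FPKM + 1), a scale that understates the changes of low genes, over genes that reached an FPKM of 1 in 3 libraries (2 for the passage and DMR-deletion comparisons), with Benjamini-Hochberg adjustment at 0.05. The switch comparison had the cell line as a block, and its wild-type control was 2i-14 p50. This control was chosen here, with p18 and p39 as alternatives, since the labels do not name the parent passage of the switched 2i-14 culture. The pairing comes from the cell line in the labels; deviations from the group means correlated across genes by 0.17 in 2i-14, 0.36 in 2i-O48-TKO and -0.14 in 2i-O48. Exact two-sided permutation tests ran over the 56 splits of 8 wild-type libraries, 1 for each of the 9 genes, and are not adjusted. Fits were tested on simulated data with 200 genes changed by a log2 of 2, of which 71% to 96.5% were recovered over the comparisons. The simulated libraries were independent and the differences of the 9 genes were smaller, so recovery of changes of their size was not tested. The members and gene lists were chosen with earlier results of these data known. Named genes are the 9 members, called genes of the lists (up to 3 per comparison) and the 5 genes most like Zfp57; since no list gene was called, those that passed only unadjusted, with Dnmt1, Uhrf1, Col1a1 and Lum, were named outside this rule after their values were seen.

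Alternatives covered a pseudocount of 0.1, no filter or a mean FPKM of at least 5, median centring, quantile normalization, no trend, the highest row per symbol, the block, the control library, and leaving out libraries or lines. Adding both DMR-deleted lines to 2i/L, and late against early passages without the libraries with fibroblast RNA, were chosen after seeing the data. Depth was estimated from the smallest FPKM values of 3700 genes longer than 1500 bp. Gene positions are from GENCODE vM1 (NCBIM37, mm9) and promoters from RefSeq (GRCm38.p6). Python 3.11.15, numpy 2.4.6, pandas 2.3.3, scipy 1.17.1 and matplotlib 3.10.9 were used.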

Additional observations from a re-analysis of the deposited data

Results flagged for a closer look

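Cbx1 in TSa2i-C57 p9 stood apart from the other TSa2i/L libraries. At 46.3 FPKM against 68.4 to 71.7 FPKM in the other 4, its gap to the nearest library was 0.895 of the range of log2(FPKM + 1), above the critical value of 0.71 that Dixon's test sets for 5 values. Chance flags about 1 in 20 such groups, and 9 genes were examined. TSa2i-C57 p9 was also the lowest of the 13 libraries for Trim28, Setdb1, Atrx and Daxx and has the lowest implied depth, 12700000 fragments; the part of depth in these values was not tested.

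For the same reason the change of Cbx1 with passage had opposite directions in the TSa2i/L lines. Late minus early was 0.60 in TSa2i-C57 and -0.06 and -0.07 in TSa2i-14 (p47 and p54 against p22), a difference of 0.66 on the log2(FPKM + 1) scale that was not tested.

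Trim28 moved in opposite directions across the switch in 2i-14 and in the lines with deleted DMRs, by 0.08 in 2i-14 and by -1.61 and -0.13 in 2i-O48 and 2i-O48-TKO. The difference of 0.95 was not tested, and the direction in 2i-14 holds for p50 as control and turns to -0.98 with p18 and -1.13 with p39. Daxx differed in the same way, by 0.13 in 2i-14 and by -0.25 and -0.02 in the deleted lines, a difference of 0.26 that was not tested either; with p18 or p39 as control the 2i-14 value was -0.39 or -0.45.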

How the results depend on the processing

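Of 509 values of the 9 genes under 27 alternative settings, 454 kept their direction and stayed outside the threshold, 1 passed it and 54 changed sign. The 1 that passed was Trim28 across the switch with 2i-14 p39 as control (-0.96, limma adjusted p 0.0420); the lowest adjusted p among the others was 0.0564, for Zfp57 between the media with the DMR-deleted lines counted as 2i/L. The causes of the sign changes were not tested, and the main difference behind all of them but that of Daxx with passage was 0.28 or less in size.

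Between the media, 786 genes were called, and 374 without a filter, 458 at a mean FPKM of at least 5, 229 without the libraries with fibroblast RNA, 468 with TSa2i-14 only and 1316 with the DMR-deleted lines added. Median centring gave -0.072 for Setdb1, -0.086 for Cbx5, -0.081 for Atrx and -0.11 for Daxx, and quantile normalization -0.074, -0.077, -0.033 and -0.11. Without the libraries with fibroblast RNA Setdb1 was -0.070, Atrx -0.11 and Daxx -0.18, and with a pseudocount of 0.1 Daxx was -0.0012. Leaving out 1 library at a time gave 383 genes (without 2i-14 p39) to 846 genes (without TSa2i-14 p22), with 440, 508 and 454 without TSa2i-14 p47, 2i-14 p18 and 2i-14 p50. Zfp445 then ran from -0.00090 to 0.37, Setdb1 from -0.039 to 0.15, Cbx5 from -0.081 to 0.10, Atrx from -0.059 to 0.15 and Daxx from -0.17 to 0.22.

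Across the switch, 672 genes were called, 0 without a filter (which tests more genes), 369 at a mean FPKM of at least 5, 1522 with p39 and 1483 with p18 as the 2i-14 control. Without the replicate block on the cell line 778 genes were called, and the block changed no call of the 9 genes. Median centring gave 0.049 for Cbx3 and 0.12 for Daxx and quantile normalization 0.14 for Daxx, and Cbx5 was -0.022 with p39 and -0.00098 with p18 as control. Leaving out a line gave 311 genes (without 2i-O48-TKO) to 1461 genes (without 2i-O48), with 1031 without 2i-14, and Cbx5 ran from -0.074 to 0.35 and Daxx from -0.13 to 0.055.

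For late against early passages 0 genes were called, also with the replicate block on the cell line (pairing by line), where the adjusted p of Setdb1 was 0.669, and 0 to 8 with 1 library left out (8 without TSa2i-14 p47). Cbx1 then ran from -0.047 to 0.57 and Daxx from -0.026 to 1.09. Without the libraries with fibroblast RNA Zfp57 was -0.36 and Atrx -0.068. For the DMR-deleted lines 12 genes were called, 0 without a filter and 0 (without 2i-O48-TKO) to 20 (without 2i-14 p50) with 1 library left out, 3 without 2i-O48. Median centring and quantile normalization gave -0.019 and -0.028 for Zfp445 and -0.041 and -0.0011 for Cbx1. With 1 library left out Zfp57 ran from -0.63 to 0.19, Zfp445 from -0.20 to 0.17, Trim28 from -0.38 to 0.63, Cbx1 from -0.061 to 0.12, Cbx3 from -0.12 to 0.0043, Cbx5 from -0.16 to 0.077 and Daxx from -0.34 to 0.28. Where a group was left with 1 library, that library was assumed to vary like the others. Depth limits Zfp445 most, at 83 fragments in its lowest library.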
